A study of Mus musculus with 6 samples.

Results

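The genes described here are 6 long noncoding RNAs, Malat1, Neat1, Gas5, Snhg1, Snhg12 and Miat, taken by symbol from the deposited tables, where all 6 were present among 17006 genes. They were measured by bulk RNA sequencing of cultured neural stem cells of the mouse. These cells derive from the subventricular zone, a germinal layer of the adult brain beside the lateral ventricles. The cells came from C57BL/6 mice with no genetic change or treatment named in the labels, either young (2 months, 3 libraries) or aged (15 to 18 months, 3 libraries). For dissociation, tissue from 5 mice was combined, and all cells were kept in proliferation medium, so the libraries describe dividing cultures rather than the tissue. The labels do not say whether the libraries of an age came from separate pools or cultures, so p-values measure the spread between these libraries only, which may be technical. Levels are FPKM (fragments per kilobase of transcript and per unit of library size), a unit scaled by transcript length, so that levels of different RNAs can be set side by side.

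Long noncoding RNAs act as RNA, without being translated, and the 6 fall into 3 kinds. Malat1 and Neat1 are neighbouring nuclear transcripts: Malat1 collects in nuclear speckles, the stores of splicing factors, and the long form of Neat1 is the scaffold around which paraspeckles assemble. Gas5, Snhg1 and Snhg12 are host genes whose introns are processed into small nucleolar RNAs (snoRNAs), the guides for modification of ribosomal RNA, while the spliced exons of such hosts are exported and are often degraded on ribosomes by nonsense-mediated decay. Miat, also called Gomafu, is a spliced RNA that stays in the nucleus, is known from the nervous system, and carries repeats that bind the splicing factor SF1. Ribosomal RNA was removed from total RNA for these libraries, per the labels' protocols, so transcripts without a poly(A) tail were open to measurement.

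Malat1 lies on mm10 chromosome 19 (chr19:5795690-5802672, minus strand) as a single exon, and Neat1 lies 22035 bases away on the same strand (chr19:5824708-5845480). Both RNAs end in a tract that folds back on U-rich stretches and protects an end without a poly(A) tail. The 2 elements are shown because the nuclear pair shares them, from GENCODE M21 transcripts (build GRCm38), written as the RNA strand. Capitals mark every exact run of at least 11 bases that the last 100 bases of the long Neat1 form share with Malat1.
Malat1 (chr19:5795982-5796070, minus strand): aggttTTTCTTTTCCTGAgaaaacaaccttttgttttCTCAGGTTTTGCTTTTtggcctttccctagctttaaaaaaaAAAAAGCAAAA
Neat1, long form (chr19:5824708-5824802, minus strand): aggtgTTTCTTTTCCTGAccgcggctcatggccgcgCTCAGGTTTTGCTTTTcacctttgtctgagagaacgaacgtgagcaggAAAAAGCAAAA
The 3 runs are TTTCTTTTCCTGA, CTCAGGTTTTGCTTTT and AAAAAGCAAAA, of 13, 16 and 11 bases. Alone, they occurred in 0.0247%, 0.00141% and 0.436% of 141767 GENCODE transcripts of any length, searched on the RNA's own strand. In this order, with gaps of up to 80 bases, they occurred in 2 of 55341 genes, the pair they were read from. The Neat1 element is at the very end of the 20771-base form, and that of Malat1 ends 292 bases before the annotated end of its 6983 bases. The deposited Neat1 row names only the short form, of 3004 bases over 2 exons (chr19:5842307-5845476), so the Neat1 values below leave out the part of the gene that only the long form covers, this element included.

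The snoRNA hosts are shown at their 5′ ends, where such genes are known for a tract of pyrimidines at the start of the RNA, the feature that ties translation to growth signals. Each line gives 50 bases before the annotated start and 50 from it on, from RefSeq (GRCm38.p6), and capitals mark the longest run of C and T that touches the 10 bases on either side of the start. Of the 2 annotated Gas5 starts the downstream one is shown, since the run at the other has only 3 bases.
Gas5 (chr1:161035116-161035215, plus strand): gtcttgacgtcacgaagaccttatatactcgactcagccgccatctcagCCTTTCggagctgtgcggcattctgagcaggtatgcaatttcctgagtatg
Snhg1 (chr19:8723437-8723536, plus strand): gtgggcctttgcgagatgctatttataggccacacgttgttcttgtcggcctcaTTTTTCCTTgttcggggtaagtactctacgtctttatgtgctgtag
Snhg12 (chr4:132308628-132308727, plus strand): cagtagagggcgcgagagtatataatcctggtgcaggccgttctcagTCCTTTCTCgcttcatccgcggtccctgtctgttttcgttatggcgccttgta
The marked runs are 6, 9 and 9 bases long, and span the annotated start in Gas5 and Snhg12 while that of Snhg1 lies just downstream of it. Among 32851 promoter windows of this kind, 30% hold a run of at least 6 bases there and 9.75% one of at least 9. Malat1 and Miat had runs of 4 and 7 bases (65.1% and 20.2% of windows hold runs at least as long), so the run of Miat was longer than that of Gas5. In 16 other snoRNA host genes with a window the median was 6.5 bases, beside 5 in all 27025 genes. Within 300 bases around the start, on either strand, the Gas5 window above holds the cAMP response element TGACGTCA (1.79% of windows) and that of Snhg1 the TATA box TATAAA (13.6%). The GC box GGGCGG (35.7% of windows) is in the windows of Gas5, Snhg1 and Miat, while CACGTG and CCAAT (7.15% and 37.4%) were found in none of the windows of the 5 genes matched in this table.

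Miat (chr5:112213228-112228948, minus strand) is shown by its repeats, TACTAAC, which resemble the branch point sequence of introns. The transcript of 8758 bases and 7 exons holds 6 of them, all in its last exon and in 2 clusters, with the repeats in capitals (GENCODE M21, RNA strand).
Miat, first cluster (chr5:112217309-112217460): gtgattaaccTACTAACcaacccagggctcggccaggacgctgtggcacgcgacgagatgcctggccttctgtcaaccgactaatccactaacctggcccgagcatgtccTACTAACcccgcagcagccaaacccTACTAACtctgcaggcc
Miat, second cluster (chr5:112216752-112216812): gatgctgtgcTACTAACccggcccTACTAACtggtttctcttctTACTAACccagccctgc
Of 55341 genes, 4 have a transcript with 6 or more such repeats, Miat among them. Malat1 holds 0 of them, the long form of Neat1 holds 1 and its short form 0.

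The 6 libraries were alike in depth, at about 5220000 to 5380000 counted reads as judged from steps in the low values, with 15116 to 15238 genes above 0. Stem and progenitor markers were high in all 6 (Fabp7 at 2662 to 2878 FPKM, Sox2 at 165.0 to 185.6 FPKM), as the labelled cell type would have them. Among markers of other cells, Ptprc (microglia and other immune cells), Dcn and Pdgfrb (fibroblasts and pericytes) and Stmn2 (neurons) did not exceed 0.1 FPKM in any library. Other markers of the same cells did, with Map2 (neurons) at 120.0 to 131.1 FPKM and Cd68 (microglia) at 2.22 to 3.69 FPKM. The summed level of 6 oligodendrocyte lineage markers was 20.7 to 22.4 FPKM in the young and 26.5 to 27.95 FPKM in the aged libraries. That of 5 fibroblast and pericyte markers was 0.35 to 0.58 and 2.68 to 3.72 FPKM, of which the collagen gene Col1a1 rose from 0.423 to 2.46 FPKM (limma adjusted p = 0.0107), and that of 4 endothelial markers 1.54 to 2.36 and 2.54 to 2.79 FPKM, where Egfl7 (1.51 and 2.56 FPKM) was higher in aged libraries and Pecam1, Cldn5 and Tek, at 0.39 FPKM or less in every library, had lower means. The sums for 4 microglial (2.88 to 4.19 and 3.06 to 3.5 FPKM), 3 ependymal and choroid plexus (10.87 to 12.8 and 8.57 to 12.25 FPKM) and 8 neuronal markers (149.3 to 152.3 and 147.2 to 153.9 FPKM, mostly Map2) overlapped between the ages. The part of these cells in the results was not tested.

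The members lay at very different levels, and they were not all abundant in these cells. Malat1 had a mean of 164.5 FPKM over the 6 libraries and ranked first among 384 tested RefSeq long noncoding RNA genes. Snhg1 (69.8 FPKM, rank 6), Gas5 (30.5 FPKM, rank 17) and Snhg12 (15.75 FPKM, rank 37) followed. Neat1 at 4.80 FPKM (rank 139) and Miat at 1.36 FPKM (rank 325) were low, and stood 53.8% and 67.7% of the way down the list of all genes ordered by mean, small RNAs left out. Between neighbours in this order the values of the 6 libraries did not overlap. The order rests on the transcript lengths behind the deposited values, which are not given in the sources used here. For Gas5 the transcript named in the deposited row was matched to a GENCODE form of 2556 bases in 4 exons. That form is annotated as retaining intron sequence, and its longest exon has 2382 bases.

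**Figure D1:**
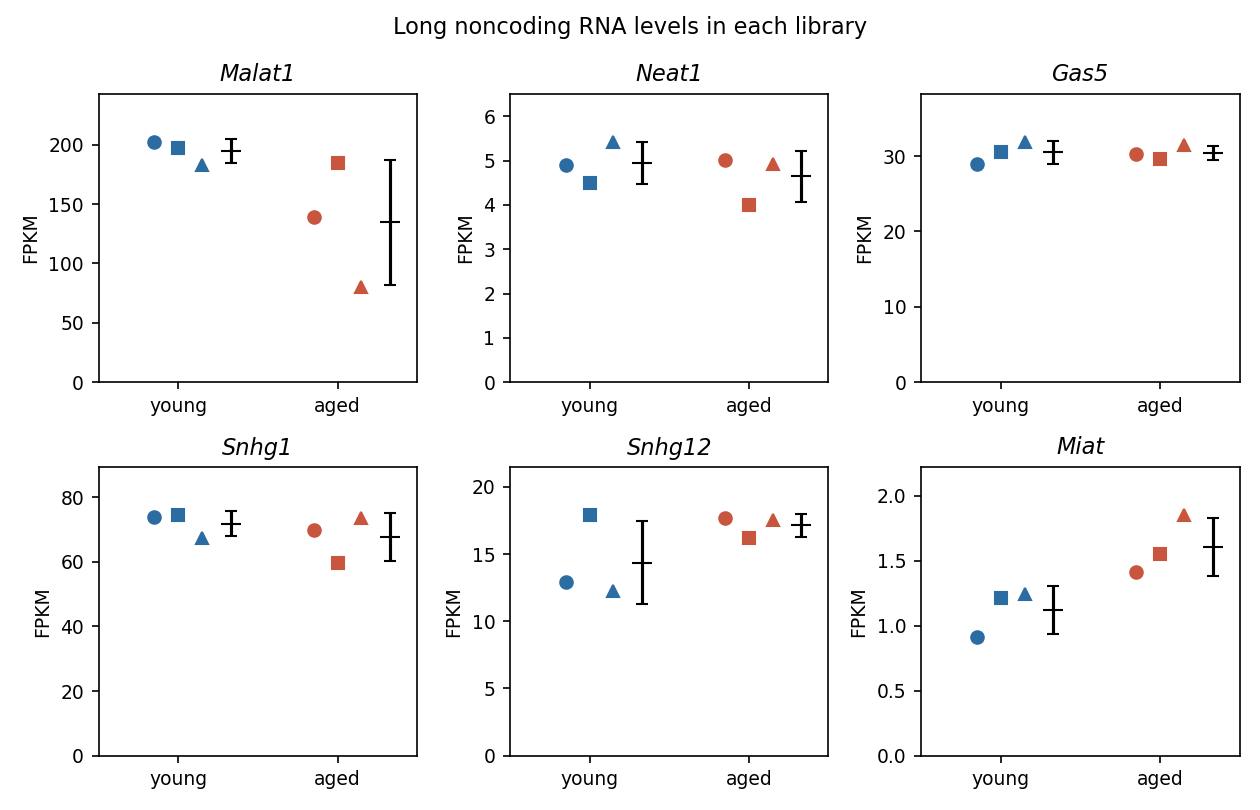
FPKM of the 6 long noncoding RNAs in each library, with circles, squares and triangles for replicates 1, 2 and 3 of each age (numbers do not pair the libraries) and bars for the mean ± SD of 3 libraries; the axes start at 0. The 3 aged Malat1 values run from 79.9 to 184.8 FPKM while the 3 young ones lie between 183.1 and 202.7 FPKM, and the Miat values of the ages do not overlap.

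Comparing aged with young cells asks how the transcriptome of cultured stem cells differs with the age of the donor. None of the 6 RNAs passed the test across all genes (limma on log2(FPKM + 1), adjusted p under 0.05 over the 11912 genes whose mean reached 1 FPKM), 0 of 6 against a background of 0.722% of genes called. At an unadjusted limma p under 0.05 there was 1 of 6, Malat1, against 11.9% of all genes. The groups did not overlap for 1 of 6, Miat, against 17.6% of all genes. Of the 6, 2 had higher and 4 lower means on the log2 scale in aged libraries, with a median difference of -0.04, beside 0.0027 for all genes tested. These shares do not set the 6 apart from other genes.

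Malat1 was the member that varied most. It was at 202.7, 197.3 and 183.1 FPKM in young libraries 1 to 3 and at 139.4, 184.8 and 79.9 FPKM in the aged libraries 1 to 3. Aged library 2 was thus at the young level, with 95.1% of the young mean, aged library 1 was at 71.7% and aged library 3 at 41.1%. The mean was 194.4 ± 10.1 FPKM in the young and 134.7 ± 52.6 FPKM in the aged libraries (SD, n = 3 each), a log2 difference of -0.61 ± 0.24 (SE, 95% interval -1.16 to -0.05). This SE and interval are limma's, which also draw on the spread of other genes between these libraries. The unadjusted limma p was 0.0365 and the adjusted p 0.380. That unadjusted p depended on the fit: it was 0.05742 with no filter, 0.07465 without limma's trend and 0.1502 with its robust option. In the other settings that kept all libraries it ran from 0.01505 (replicate block) to 0.04065 (quantile normalization). Without aged library 3 the log2 difference was -0.27, and without aged library 2 it was -0.87 (limma adjusted p = 0.461 and 0.138), so single aged libraries set its size. In bulk RNA, fewer cells of a type and less RNA per cell cannot be told apart.

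The spread of Malat1 lay among the aged libraries. The SD of log2(FPKM + 1) was 0.075 among young and 0.61 among aged libraries. Of the 751 other tested genes within 2-fold of its mean level (82.3 to 329.1 FPKM), 0 had a larger SD among aged libraries, and the next, Atp5k, had 0.237. The median of these genes was 0.044 in aged and 0.035 in young libraries, and 81 of them had a larger SD than Malat1 among young libraries. The lowest value, in aged library 3, stands for about 2959 estimated reads and the highest, in young library 1, for about 7614. This comparison was made after the values were seen and is a description, with no test of the difference in spread.

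**Figure D2:**
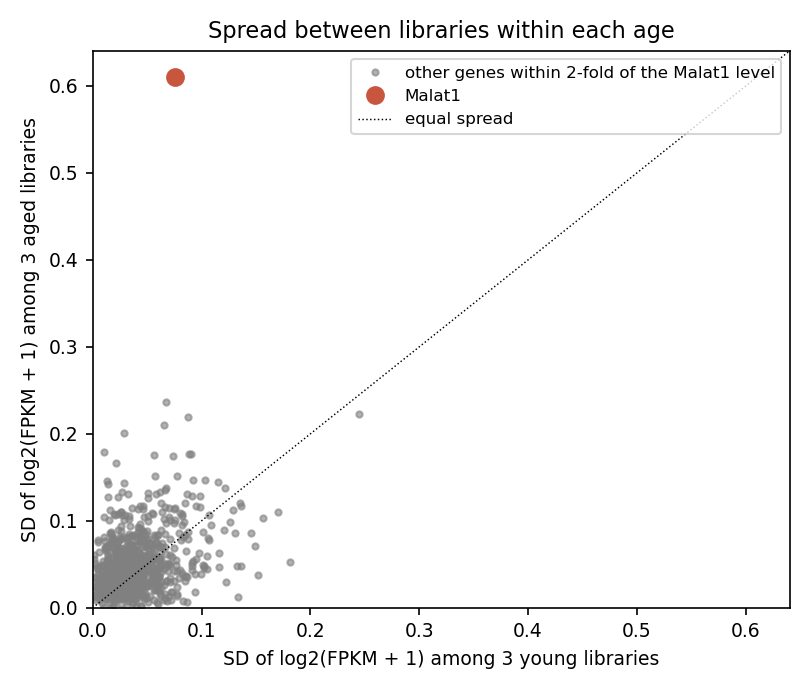
SD of log2(FPKM + 1) among the 3 young libraries (horizontal) and the 3 aged libraries (vertical) for Malat1 and the 751 other tested genes within 2-fold of its mean level, 1 point per gene, with a dotted line of equal spread. Malat1 stands alone near the top, at 0.61 among aged libraries, and the next gene is at 0.237.

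Genes of the speckle summed to nearly the same level in all 6 libraries. The list of nuclear speckle and SR proteins (splicing factors and their kinases) held 25 genes, all tested, of which 0 rose and 0 fell by limma (1 was higher and 0 lower at an unadjusted p under 0.05), with a median log2 difference of 0.01. For this and the lists below, the shares of all tested genes were 0.722% called and 11.9% at an unadjusted limma p under 0.05. Tra2a, a splicing regulator related to SR proteins, was at 52.5 to 57.2 FPKM in the young and 57.3 to 60.3 FPKM in the aged libraries (limma adjusted p = 0.381). The SR protein Srsf3 was at 140.8 to 142.5 and 145.5 to 149.6 FPKM (limma adjusted p = 0.450). The summed level of the list was 2071 to 2097.7 FPKM in the young and 2098.1 to 2109 FPKM in the aged libraries. These sums lay close together but did not overlap, with the aged ones higher. The 3 genes whose values over the 6 libraries were most like those of Malat1, among 8969 genes of at least 5 FPKM, were Fam204a (Pearson r = 0.99), Pard6g (0.99) and Ddx6 (0.98). They share the low aged library 3, but with small differences: Fam204a was at 14.85 FPKM there and at 17.04 to 18.1 FPKM in the other 5 libraries. Searched among so many genes over 6 libraries, the highest r were 0.97 or more for every member, and are a description with no test.

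The Neat1 values lay in another order than those of its neighbour. It was at 4.91, 4.50 and 5.43 FPKM in the young and 5.01, 3.99 and 4.93 FPKM in the aged libraries, so that aged library 3, the lowest for Malat1, was close to the young mean of 4.95 FPKM. The lowest aged Neat1 value came from library 2, where Malat1 was highest. The mean was 4.95 ± 0.466 FPKM in the young and 4.64 ± 0.567 FPKM in the aged libraries (SD, n = 3 each), a log2 difference of -0.08 with a 95% interval of -0.32 to 0.17 (limma adjusted p = 0.850). This interval holds differences of up to 0.799 and 1.12 times on the scale of FPKM + 1, so larger ones lie outside it. These values rest on about 62.6 to 87.8 estimated reads per library. The ratio of Malat1 to Neat1 was 33.7 to 43.9 in young and 16.2 to 46.3 in aged libraries, and the Pearson r of their log2(FPKM + 1) over the 6 libraries was -0.23. On the other side of Neat1, Frmd8 was at 79.3 and 76.4 FPKM (limma adjusted p = 0.659).

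Proteins of the paraspeckle, which Neat1 gathers, were well expressed at both ages. Of 25 such genes, all tested, 0 rose and 0 fell by limma (2 were higher and 0 lower at an unadjusted p under 0.05), and the median log2 difference was -0.0034. Hnrnph3, an RNA-binding protein found in paraspeckles, was at 26.2 to 27.4 FPKM in the young and 28.8 to 30.4 FPKM in the aged libraries (limma adjusted p = 0.276). Hnrnpul1 was at 114.0 to 114.5 and 119.0 to 121.0 FPKM (limma adjusted p = 0.394). The core proteins, given here for their role and after their values were seen, were Sfpq at 232.2 and 242.1 FPKM, Nono at 214.3 and 217.6 FPKM and Pspc1 at 32.1 and 33.7 FPKM, with limma adjusted p from 0.448 to 0.860. The genes most like Neat1 over the 6 libraries were 6430562O15Rik (Pearson r = 0.99), Mrps23 (0.98) and Cebpz (0.97).

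Gas5, named for its rise in cells that stop growing, was the steadiest member. It was at 28.98, 30.57 and 31.93 FPKM in the young and 30.33, 29.6 and 31.46 FPKM in the aged libraries. The ranges coincide, with means of 30.5 ± 1.48 and 30.5 ± 0.937 FPKM (SD, n = 3 each). The log2 difference was -0.00074, with a 95% interval of -0.12 to 0.12, which on the scale of FPKM + 1 is 0.921 to 1.08 times (limma adjusted p = 0.996). The gene (chr1:161034601-161038539, plus strand) overlaps the start of Zbtb37, on the opposite strand in RefSeq, by 264 bases. The strand setting of the counting is not given in the sources used here, so reads in this overlap cannot be assigned to either gene. Zbtb37 was at 1.24 FPKM in the young and 0.983 FPKM in the aged libraries (limma adjusted p = 0.853). Ap1b1 (Pearson r = 0.98), Psrc1 (0.97) and Psmb2 (0.97) had the most similar values over the 6 libraries.

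Snhg1 (chr19:8723487-8726326, plus strand) was at 73.8, 74.5 and 67.3 FPKM in the young and 69.9, 59.5 and 73.7 FPKM in the aged libraries. Aged library 2 was the lowest of the 6, and the other 2 aged libraries lay within the range of the young. The mean was 71.8 ± 3.94 FPKM in the young and 67.7 ± 7.32 FPKM in the aged libraries (SD, n = 3 each), a log2 difference of -0.09 with a 95% interval of -0.26 to 0.09 (limma adjusted p = 0.733). Without aged library 2 the difference was 0.00014. Its start lies 117 bases from that of Slc3a2, the heavy chain of several amino acid transporters, on the opposite strand. Slc3a2 was at 138.8 to 146.1 FPKM in the young and 150.4 to 153.3 FPKM in the aged libraries and did not pass (limma adjusted p = 0.276). On the other side, Wdr74 was at 29.7 and 27.4 FPKM (limma adjusted p = 0.549). Hdac1 (Pearson r = 0.99), Cyp4f16 (0.98) and Mapk11 (0.98) were most like Snhg1.

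Snhg12 (chr4:132308678-132311024, plus strand) was at 12.9, 17.9 and 12.28 FPKM in the young and 17.67, 16.18 and 17.57 FPKM in the aged libraries. Young library 2 was the highest of all 6, above every aged value, while the other 2 young libraries were below every aged value. The mean was 14.4 ± 3.08 FPKM in the young and 17.1 ± 0.833 FPKM in the aged libraries (SD, n = 3 each), a log2 difference of 0.26 with a 95% interval of -0.02 to 0.54 (limma adjusted p = 0.470). Without young library 2 the difference was 0.42 (limma adjusted p = 0.0830). About 40.0 to 58.4 estimated reads stand behind each value, and the downstream neighbour Trnau1ap was at 28.2 and 28.3 FPKM (limma adjusted p = 0.978). Abhd10 was the gene most like Snhg12 over the 6 libraries (Pearson r = 0.98).

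The 3 hosts can be set side by side through their ratios. The ratio of Snhg1 to Gas5 was 2.36 ± 0.228 in young and 2.22 ± 0.181 in aged libraries (SD, n = 3 each), with values that overlapped. The ratio of Snhg1 to Snhg12 was 4.16 to 5.72 in young and 3.68 to 4.19 in aged libraries, which also overlapped. Over the 6 libraries, the Pearson r of log2(FPKM + 1) was 0.13 between Gas5 and Snhg1, 0.03 between Gas5 and Snhg12 and 0.11 between Snhg1 and Snhg12, as a description of 6 points that share their libraries. Few snoRNAs inside the hosts had a value: of 8, 8 and 4 snoRNA genes within Gas5, Snhg1 and Snhg12, the deposited tables listed 1, 1 and 3. The others have no row there, so their signal is not known. Snord47 of Gas5 was listed at 6.18 FPKM in young library 1, 12.6 FPKM in aged library 1 and 0 in the other 4. Snord22 of Snhg1 was above 0 in 1 library, and Snora61 and Snord99 of Snhg12 in 1 library each. Snora16a of Snhg12 was above 0 in 5 of 6, at 1.79 to 3.69 FPKM. FPKM of such short RNAs are unreliable and their level cannot be read from these libraries.

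Among 19 other noncoding snoRNA host genes, 17 were tested, of which 1 rose and 0 fell by limma, beside 0.722% of all genes called. At an unadjusted limma p under 0.05, 2 were higher and 1 lower, beside 11.9% of all genes. The median log2 difference of the 17 was -0.04. The one called was Snhg5, host of the U50 snoRNAs, at 24.98, 22.72 and 25.86 FPKM in the young and 31.1, 31.69 and 30.41 FPKM in the aged libraries. It rose to 1.27 times the young mean, with a log2 difference of 0.33 (SE 0.06, limma adjusted p = 0.0458). That call was lost with any 1 of the 6 libraries left out (limma adjusted p up to 0.153), and also in limma fits without trend (0.140), blocked by replicate number (0.151), with no filter (0.0820), as TPM (0.0647) and after quantile normalization (0.0529). The next 2 by p were Snhg15, listed as Gm11974, at 14.3 and 16.8 FPKM and Snhg8 at 29.1 and 25.6 FPKM (limma adjusted p = 0.382 and 0.421).

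The machinery that acts on the hosts showed no called gene. Of 17 nonsense-mediated decay factors, all tested, 0 rose and 0 fell by limma (1 higher and 0 lower at an unadjusted p under 0.05, median log2 difference -0.0092). Upf3a was at 46.5 and 49.9 FPKM, and the exon junction protein Magoh at 39.0 and 41.7 FPKM (limma adjusted p = 0.421 and 0.623). Of 17 snoRNP proteins and assembly factors, all tested, 0 rose and 0 fell by limma (0 higher and 2 lower at an unadjusted p under 0.05, median -0.03). Gar1, a core protein of H/ACA snoRNPs, was at 42.7 and 37.1 FPKM and Aatf at 15.4 and 13.0 FPKM (limma adjusted p = 0.358 and 0.155). The glucocorticoid receptor, to which Gas5 has been reported to bind, and its target genes made a list of 11, of which 9 were tested and 0 rose or fell by limma (1 higher and 1 lower at an unadjusted p under 0.05, median -0.02). In that list the mTOR inhibitor Ddit4 was at 55.0 and 61.6 FPKM and the kinase Sgk1 at 11.4 and 10.03 FPKM (limma adjusted p = 0.287 and 0.327).

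**Figure D3:**
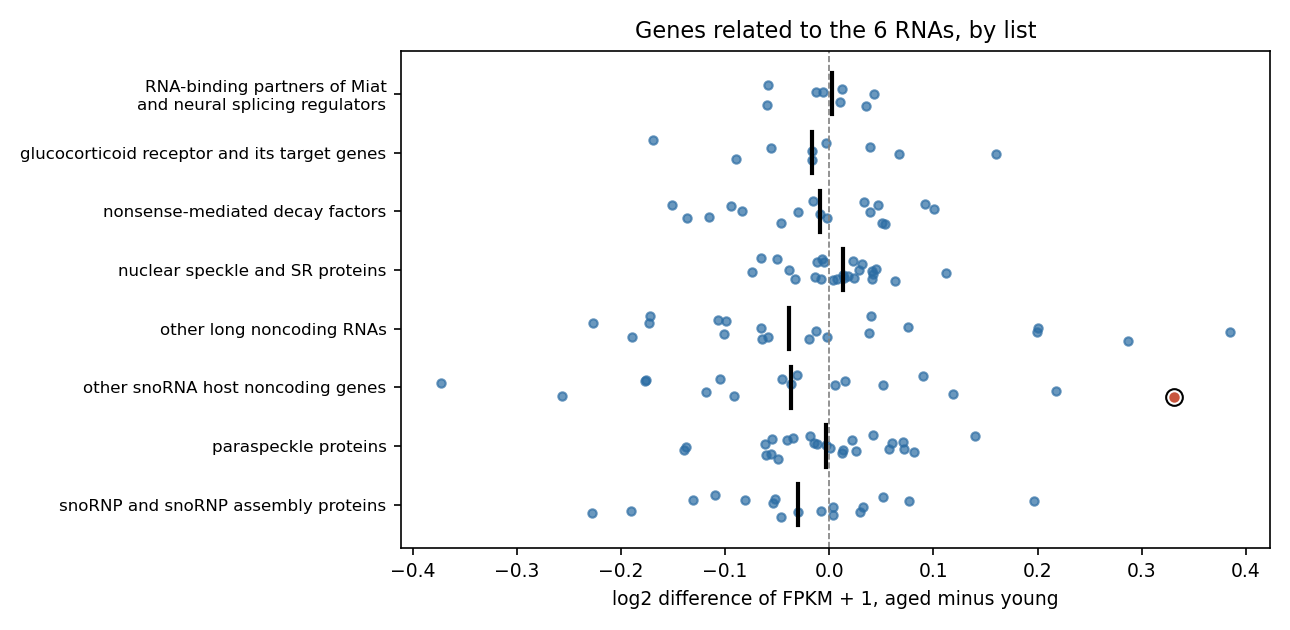
Log2 difference of FPKM + 1 (aged minus young) of each tested gene in 8 lists related to the 6 RNAs, with a black bar at each list's median and a ring around genes with a limma adjusted p under 0.05; vertical jitter has no meaning. The medians lie between -0.04 and 0.01 and the only ringed gene is Snhg5, at 0.33.

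Miat was the only member whose groups did not overlap. It was at 0.91, 1.21 and 1.24 FPKM in the young and 1.41, 1.55 and 1.85 FPKM in the aged libraries, so that all 3 aged values were above all 3 young ones. The mean was 1.12 ± 0.182 FPKM in the young and 1.60 ± 0.225 FPKM in the aged libraries (SD, n = 3 each), a ratio of 1.43. On the scale of FPKM + 1 the log2 difference was 0.30 with a 95% interval of -0.03 to 0.62, and it did not pass (limma adjusted p = 0.472). With a pseudocount of 0.1 FPKM in place of 1 the log2 difference was 0.48 (limma adjusted p = 0.502). The values stand for about 42.9 to 85.9 estimated reads over the 8758-base transcript, and groups that do not overlap with aged values higher were found in 8.98% of all genes tested.

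Several markers of the neuronal and oligodendrocyte lineages, though not all, lay on the same side. Among 8 neuron and neuroblast markers, 4 were tested, of which 3 were higher and 1, Map2, lower in aged libraries, and 0 were called. The neuronal tubulin Tubb3 was at 8.83 to 10.41 FPKM in the young and 11.26 to 12.69 FPKM in the aged libraries, and Snap25, of the synaptic release machinery, at 2.66 to 3.26 and 3.68 to 5.22 FPKM (limma adjusted p = 0.140 and 0.182). Of the untested ones, Dcx, a marker of neuroblasts, was at 0.29 to 0.39 and 0.46 to 0.80 FPKM, and Stmn2 was at 0 in 5 of 6 libraries. Among 6 oligodendrocyte lineage markers, 4 were tested, of which 3 were higher and 1 lower and 0 were called, with Cspg4 of oligodendrocyte precursors at 13.9 and 18.6 FPKM (limma adjusted p = 0.0604) and Pdgfra at 1.53 and 2.25 FPKM (0.309). Mbp of myelin, which was not tested, lay on the other side, at 0.56 to 0.89 FPKM in the young and 0.29 to 0.43 FPKM in the aged libraries. Their part in the Miat values was not tested.

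RNA-binding proteins that Miat is known to meet, with other neural splicing regulators, made a list of 10, of which 8 were tested and 0 rose or fell by limma (0 at an unadjusted p under 0.05, median log2 difference 0.0024). Of the list, Qki was not matched by symbol, though a tested gene is listed as Qk, and it is not in these counts. Sf1, which recognises branch points and the repeats shown above, was at 79.0 and 81.4 FPKM, and Khdrbs1, or SAM68, at 82.5 and 84.6 FPKM (limma adjusted p = 0.709 and 0.775). The nearest genes with a value on either side of Miat, E130006D01Rik and Cryba4, stayed at 0.87 FPKM or less in every library. The genes most like Miat over the 6 libraries were Hmox1 (Pearson r = 0.99), Ncald (0.99) and Fbxo9 (0.99). Like those given for the other members, they are the highest r among 8969 genes over 6 libraries, with no test.

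**Figure D4:**
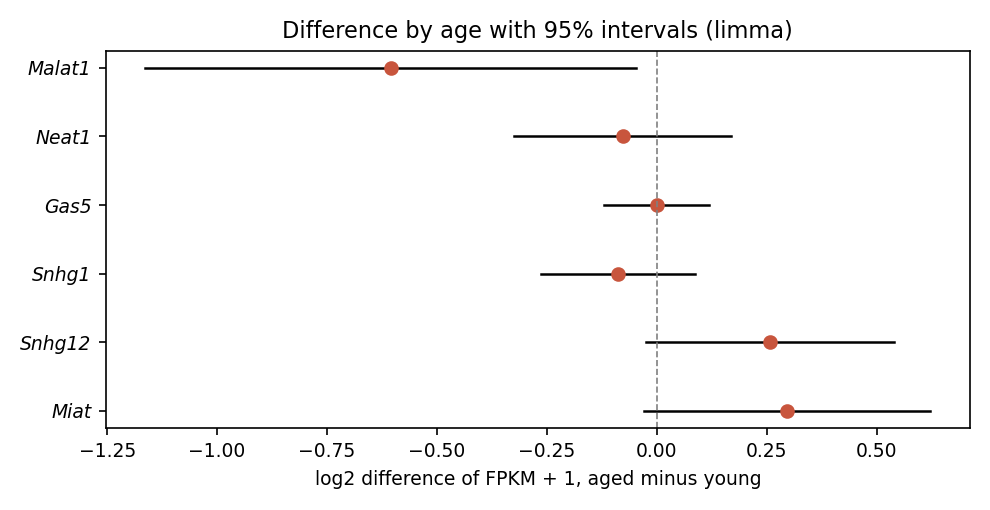
Log2 difference of FPKM + 1 (aged minus young) for the 6 RNAs, with points for the limma estimate and lines for its 95% interval, not adjusted for the number of genes. Malat1 has the widest interval (-1.16 to -0.05) and Gas5 the narrowest (-0.12 to 0.12).

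In the wider class, RefSeq lists 1033 of the genes in the tables as long noncoding RNA, and 384 of them were tested. Of these, 1 rose and 2 fell by limma, which is 0.781% beside 0.722% of all genes, and 41 (10.7%) had an unadjusted p under 0.05, beside 11.9%. The median log2 difference was -0.0076. Besides Snhg5 the calls were 9330188P03Rik, which fell from 19.7 ± 4.13 to 8.99 ± 1.16 FPKM (limma adjusted p = 0.0128), and Ctrcos, which fell from 33.1 ± 4.28 to 21.6 ± 1.86 FPKM (limma adjusted p = 0.0372; SD, n = 3 each). Both were named after their values were seen, and Ctrcos is uncertain because it lies opposite another gene and the strand setting is not known. Each lost its call with no filter, in the limma fit without trend and when blocked by replicate number, 9330188P03Rik also without aged library 2 or 3 (limma adjusted p up to 0.0809 over all alternatives) and Ctrcos also without any 1 library other than young 2 (up to 0.175).

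**Figure D5:**
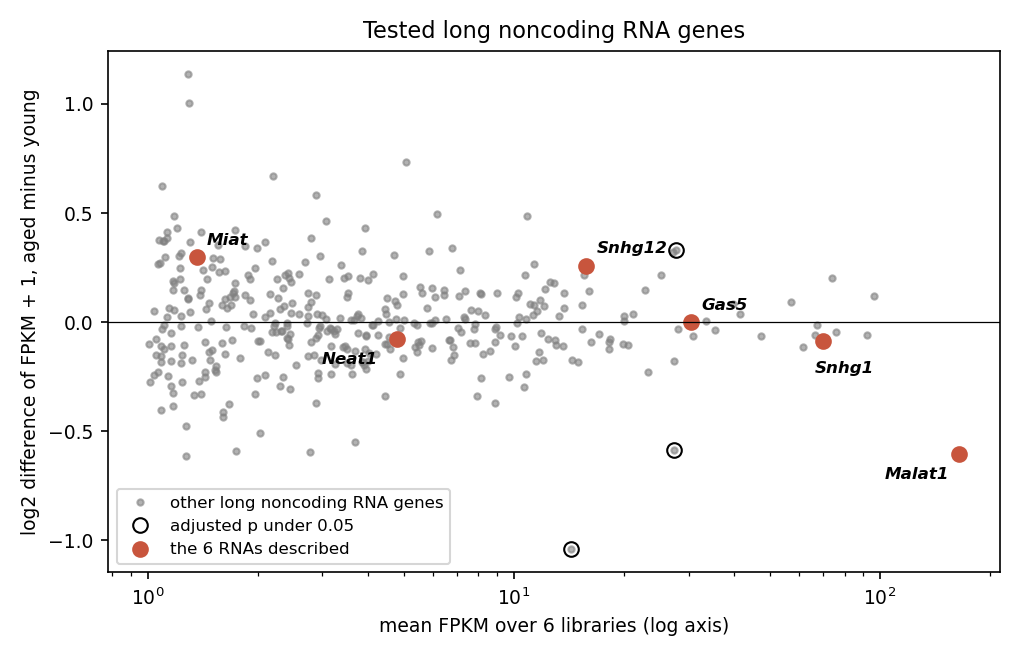
Mean FPKM over the 6 libraries (log axis) and log2 difference of FPKM + 1 (aged minus young) of the 384 tested long noncoding RNA genes, with the 6 RNAs in red and a ring around genes with a limma adjusted p under 0.05. Malat1 is at the far right with a difference of -0.61 and no ring, and the 3 ringed genes are Snhg5, Ctrcos and 9330188P03Rik.

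Among 27 other well-known long noncoding RNAs found in the tables, of 30 listed, 20 were tested and 0 rose or fell by limma (1 higher and 2 lower at an unadjusted p under 0.05, median -0.04). Pantr1, transcribed beside the neural transcription factor gene Pou3f3, was at 65.3 to 71.4 FPKM in the young and 76.8 to 80.06 FPKM in the aged libraries (limma adjusted p = 0.0964). The RNA listed as 1700020I14Rik was at 23.6 to 27.6 and 19.8 to 22.6 FPKM (limma adjusted p = 0.266).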

How the data were processed

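The authors deposited a table of FPKM values for each of the 6 libraries, with 2 decimals, per the file headers. The submitters' processing notes name TopHat, Cuffdiff and mm10, without version or role. The annotation, strand setting and scaling between libraries are not given in the sources used here. Genes were matched by Entrez identifier to RefSeq (GRCm38.p6, same assembly as mm10); 16962 of 17006 were found, and 32 symbols that were blank or turned into dates were repaired. Transcript lengths, and the sequences of RNA elements, come from GENCODE M21 (GRCm38), and promoter sequences from RefSeq, which matched 5 of the 6 members.

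Because FPKM are not counts, the test was limma 3.58.1 in R 4.3.3 (with trend, no covariates, two-sided) on log2(FPKM + 1) for the 11912 genes whose mean reached 1 FPKM, with Benjamini-Hochberg adjustment over all of them and a threshold of 0.05. The fit was tested on simulated data. Differences on this scale understate the change of low genes. Reads were estimated from steps in low values: between 3.5 and 10.5 estimated reads, 49.7% to 57.5% of values were no further than 0.15 from a whole read, where chance gives 30%. They are approximate, serve only to judge depth and cover counting error only. Figures were drawn with matplotlib 3.10.9 and tables made in pandas 2.3.3 and numpy 2.4.6 under Python 3.11.15.

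The members and lists were chosen with earlier results of these data known. Named genes are the 6 members, the called genes of each list or otherwise the 2 with the smallest p, the nearest gene with a value on either side of each member, and the 3 genes with the highest Pearson r to each member. Alternatives covered pseudocount, filter, scaling, limma's options, a replicate block and leaving out each library. A few listed genes were not analysed here, and some genes that the rule names are not reported here.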

Additional observations from a re-analysis of the deposited data

How the results depend on the processing

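Each of the 6 RNAs stayed above the threshold of 0.05 in all of its 16 or 17 alternatives, with a limma adjusted p from 0.0830 (Snhg12 without young library 2) to 1. Malat1 stayed lower and Snhg12 and Miat higher in aged libraries in each of them, while Neat1, Gas5 and Snhg1, all near 0, changed sign in 1, 4 and 1 of the fits that left out a library. With 1 library left out, the log2 difference ran from -0.87 to -0.27 for Malat1, from -0.13 to 0.0086 for Neat1, from -0.036 to 0.032 for Gas5, from -0.15 to 0.00014 for Snhg1, from 0.16 to 0.42 for Snhg12 and from 0.22 to 0.35 for Miat. Neat1 and Miat could not be fitted with a filter at 5 FPKM, which they do not pass. Over all genes, 86 were called (39 higher, 47 lower), 11 without limma's trend, 22 with the replicate block and 39 to 63 with 1 library left out, which has fewer samples. The other settings gave 59 (no filter) to 116 (TPM without small RNAs), with 108 at a filter of 5 FPKM and 109 with the robust option. The cause of the other changes was not tested. Same-numbered libraries did not deviate together (correlation 0.008, -0.07 and 0.11 across genes), and not every library correlated best with its own number, so the replicate number was not taken as a pairing. Neat1, Snhg12 and Miat rest on 40.0 to 87.8 estimated reads per library, which limits what differences can be seen.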
